A study of Mus musculus with 15 samples.

Results

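The serpin protease inhibitors were examined in the livers of mice with and without carcinogen-induced tumours. Genes were taken as members when their symbol on the array was Serpin followed by a clade letter from a to i, a number and, where present, a paralog letter. The rule used no measured value and found 58 genes, read by 74 probes, of 22032 genes and 29522 probes on the array. Clade A held 22 genes and clade B 26 genes. Clades E, F and I held 2 genes each, and clades C, D, G and H held 1 each. Of the 58 genes, 21 lay on chromosome 12, 15 on chromosome 13 and 13 on chromosome 1, and the other 9 lay on 7 other chromosomes.

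Liver RNA was hybridised to 15 single-colour arrays. All animals were male mice of the outbred CD1 stock. The labels give their age as 10 weeks and also as that at which the mice were obtained, and by the study's methods they were killed later, as adults. Control mice received saline and an empty plasmid. DEN mice received diethylnitrosamine, a carcinogen that gives rise to hepatocellular carcinoma, in infancy and later the empty plasmid. Gas1 mice received the same carcinogen and later a plasmid that carries Gas1, a growth arrest gene, tagged with an HA epitope and driven by the ubiquitous CAG promoter. All groups therefore shared the plasmid backbone and its delivery, which used 50 µg of DNA in a rapid tail vein injection (hydrodynamic gene delivery) and reaches mainly liver cells near vessels. There were 4 Control, 5 DEN and 6 Gas1 arrays. Control arrays C3 and C4 carried the same RNA code, as did DEN arrays T4 and T5, and each pair was averaged (C3+4, T4+5). This left 13 mice, 3 in the Control group (C1, C2, C3+4), 4 in the DEN group (T1, T2, T3, T4+5) and 6 in the Gas1 group (G1 to G6). The comparisons asked which serpins differed in tumour-bearing liver, and whether they differed after delivery of Gas1.

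Serpins are proteins that share a fold with an exposed reactive centre loop, which a target protease cuts as bait. The cut serpin then changes shape and traps the protease in an inactive complex. Hepatocytes secrete many clade A serpins and those of clades C, D, F and G into the plasma, where they restrain proteases of coagulation, fibrinolysis, complement and inflammation. Clade B serpins mostly remain inside cells, where they hold back proteases of leukocytes and epithelia, and some members of the family, such as hormone carriers, inhibit no protease at all.

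Several serpins are recent duplicates, so the probe sequences are shown first for the genes whose values turn on them. Each is a stretch of the 60-base probe, read 5′ to 3′, with mm9 coordinates as the array files give them. Serpina9 and Serpina11, which carry the differences described below, are neighbours on the minus strand of chromosome 12, at chr12:105234860-105234889 and chr12:105218490-105218519. The second probe of Serpina11 overlaps the first, and capitals mark the 4 bases at which they differ among 57 aligned bases. Only the second was matched to a listed transcript of Serpina11. The first carries the gene's symbol on the array but was matched to no listed transcript.
Serpina9: ctcagtacctttgcttttatggctggctcc
Serpina11 first probe: ccctgcaCggcaggaccccCgCgctGcagt
Serpina11 second probe: ccctgcaTggcaggaccccTgTgctTcagt

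The Serpina1 paralogs, which encode alpha-1-antitrypsin, the main plasma inhibitor of neutrophil elastase, are shown because the Serpina1a and Serpina1c probes hardly tell those genes apart. Stretches are given from Serpina1a (chr12:105091844-105091873), Serpina1c (chr12:105133181-105133210) and Serpina1e (chr12:105185187-105185216), all on the minus strand, and the capital marks the base that differs within them. The Serpina1a and Serpina1c probes shared an unbroken run of 47 bases, and the latter was annotated to 4 paralogs. Outside its stretch the Serpina1e probe differed more. Of its aligned bases, 11 of 50 differed from Serpina1a and 10 of 59 from Serpina1c. The last pair comes from the other probes of Serpina1a (chr12:105091979-105092006) and Serpina1e (chr12:105185322-105185349), in the part that encodes the reactive centre loop. There the capitals mark 7 differing bases of 28, so these probes differ more than the first probes of Serpina1a and Serpina1c do.
Serpina1a: tgtcatccttccttctgaattgggttcctt
Serpina1c: tgtcatccttccttctgaattgggttcctt
Serpina1e: Agtcatccttccttctgaattgggttcctt
Serpina1a loop: TGgTtCCtAtgtctatgccccctatcCt
Serpina1e loop: GCgGtTTtTtgtctatgccccctatcTt

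In clade B, Serpinb3a (chr1:108942316-108942345, minus strand) and Serpinb3c (chr1:109167930-109167959, minus strand) are shown because both were measured in the same pair of mice and in no others. The stretches differ in 1 base, in capitals, and the probes in 5 of 48 aligned bases. The Serpinb8 probe (chr1:109504880-109504909, plus strand) is shown because 50 of its 60 bases are G or T, a low-complexity sequence that may bind other transcripts.
Serpinb3a: tcttctaatctagcatAtatctgtgccctg
Serpinb3c: tcttctaatctagcatGtatctgtgccctg
Serpinb8: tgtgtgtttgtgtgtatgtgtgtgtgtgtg

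Values are log2 intensities after background correction and quantile normalization, and a difference of 1 is a change of 2-fold. A spot was taken as measured where the scanner software marked it well above background. Such spots numbered 15707 to 27681 per Control array, 19970 to 22638 per DEN array and 18041 to 29765 per Gas1 array, and the number of arrays limits the precision. The hepatocyte markers, 10 genes that include Serpina1a and Serpinc1, were well above background on all 15 arrays, and their mean lay between 14.41 and 14.76 in all mice. Within that list genes went both ways, with 3 higher and 3 lower in DEN than in Control at an unadjusted p under 0.05 (median 0.03). Of these Ttr (transthyretin) fell in DEN (-1.01 ± 0.13, limma adjusted p = 0.0059), and Pck1, a gluconeogenic enzyme, rose in Gas1 against Control mice (1.96 ± 0.38, limma adjusted p = 0.0495). Gas1 itself read 6.53 ± 0.20 (SD, n = 3) in Control, 6.54 ± 0.09 (n = 4) in DEN and 6.61 ± 0.11 (n = 6) in Gas1 mice, and the last did not exceed DEN (log2 difference 0.08 ± 0.08 SE, limma adjusted p = 0.77). Whether the Gas1 probe lies in the part carried by the plasmid is not known, so it does not check the label. Because the samples are bulk liver, fewer cells of a type and less RNA per cell cannot be told apart.

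Of the mice, 3 stood apart. In DEN mouse T2 the mean of 18 acute phase genes, which hepatocytes induce in inflammation and none of which is a serpin, was 14.71, against 11.97 to 12.81 in the other 12 mice. Gas1 mice G4 and G6 carried transcripts of squamous epithelium. The mean of 11 such genes, a list chosen after their values were seen, was 7.70 and 7.37 there and 6.08 to 6.26 in the others. Of the 11 genes, 9 were higher in both mice than in all others. Trp63 (6.82 and 6.84, others 6.62 to 7.29) and Krt6a (6.20 and 6.02, others 5.83 to 6.32) were not. The keratinocyte gene Lor read 12.14 and 11.02 in G4 and G6 and at most 6.97 in any other mouse. Both arrays were on the same one of 2 slides, each of which held arrays of all groups.

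Serpins were detected about as often as other genes, and the share detected differed from clade to clade. A probe was well above background on all 15 arrays for 24 of the 58 serpins (41.4%), against 38.5% of all genes. For 15 serpins (25.9%, against 29.1% of all genes) no array passed, and for 19 only some did. In clade A, 15 of 22 genes passed on all arrays, and only Serpina12 (vaspin) on none. In clade B, 3 of 26 passed on all arrays (Serpinb6a, Serpinb6c and Serpinb8) and 12 on none. Serpinc1, Serpind1, Serpinf1, Serpinf2, Serping1 and Serpinh1 passed on all arrays, and Serpini1 (neuroserpin) and Serpini2 (a pancreatic serpin) on none. Of 10 exocrine pancreas markers, 2 (Amy2a5 and Ctrb1) passed on all arrays, 3 (Cpa1, Cpb1 and Pnlip) on none and the others on some. Between 26 and 34 serpins were well above background per Control array, 29 to 33 per DEN array and 27 to 39 per Gas1 array.

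**Figure D1:**
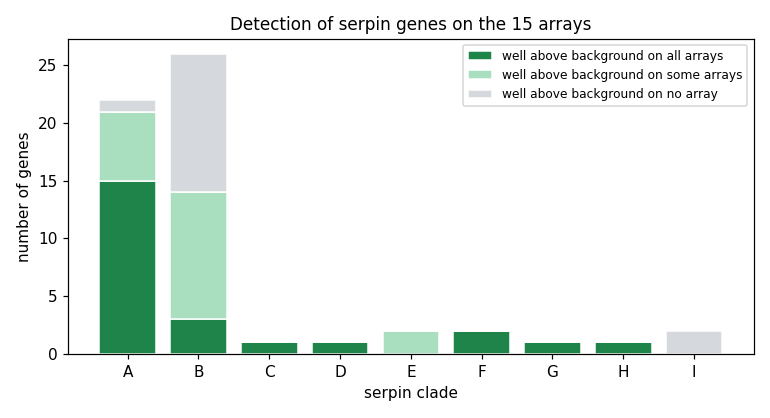
Number of serpin genes (vertical axis) in each clade (horizontal axis), split by whether a probe was well above background on all, some or none of the 15 arrays. All arrays detected 15 of 22 clade A genes, whereas 12 of 26 clade B genes were detected on no array.

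DEN minus Control. Serpina9 and Serpina11, neighbours in the clade A cluster, were higher in DEN livers, by 3.08-fold and 1.88-fold. No serpin was called lower. With an adjusted p under 0.05 (limma, Benjamini-Hochberg over all 22032 genes), 3 of 58 serpins were called, or 5.17%, against 2.38% of all genes. All 3 were higher in DEN, where 1.22% of all genes were called higher and 1.17% lower. At an unadjusted p under 0.05, 16 serpins passed (27.6%, against 20.3%). The methods' t-test called 0 serpins and 0 of all genes after Benjamini-Hochberg adjustment, with 17 serpins (equal variances) or 13 (unequal variances) at an unadjusted p under 0.05. By its 2 forms Serpina9 had an adjusted p = 0.15 and 0.27, and Serpina11 0.16 and 0.36. Mice of the groups did not overlap for 19 serpins (32.8%), 12 of them higher and 7 lower in DEN, against 19.1% of all genes (10.5% higher and 8.61% lower). Among genes well above background on all arrays, groups did not overlap for 54.2% of 24 serpins and 23% of 8476 genes, and 8.33% and 3.98% had an adjusted p under 0.05.

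Serpina9 (centerin), known from germinal centre B cells, had the widest difference of the family. Control mice read 7.11, 7.07 and 7.32, DEN mice 8.77, 8.12, 9.43 and 8.84, and Gas1 mice 8.12, 7.97, 7.95, 8.32, 7.47 and 7.65. All DEN mice and all Gas1 mice lay above every Control mouse, and DEN and Gas1 mice overlapped. The log2 difference of DEN from Control was 1.62 ± 0.25 (SE, adjusted p = 0.011). Within slides it was 1.29 on slide 1 and 1.79 on slide 2, with adjusted p = 0.14 and 0.053. Markers of B and T lymphocytes, 6 genes of which 1 was on no array well above background, averaged 6.41 to 6.53 in Control, 6.59 to 6.72 in DEN and 6.49 to 6.68 in Gas1 mice. The part of those cells in the Serpina9 result was not tested.

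Serpina11 was read as 12.59, 13.32 and 12.98 in Control mice, 13.79, 13.92, 14.01 and 13.77 in DEN mice, and 13.30, 13.15, 13.57, 13.15, 13.04 and 13.17 in Gas1 mice. DEN mice were above all mice of the other groups, which overlapped each other. The difference of DEN from Control was 0.91 ± 0.15 (adjusted p = 0.016), and it was 0.67 within slide 1 (adjusted p = 0.22) and 1.08 within slide 2 (adjusted p = 0.042). Without DEN mouse T3 it was 0.87, with adjusted p = 0.052. The study chose its list of restored genes from these same arrays, so a place on that list would be no independent evidence of direction.

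The overlapping Serpina11 probes shown above differed in size but not in direction. The gene values average both, including the first, which was matched to no listed transcript. The first gave 12.72, 13.80 and 13.10 in Control, 14.31, 14.43, 14.52 and 14.27 in DEN, and 13.41, 13.24, 14.11, 13.24, 13.17 and 13.32 in Gas1 mice. The second gave 12.45, 12.83 and 12.86 in Control, 13.28, 13.41, 13.49 and 13.27 in DEN, and 13.19, 13.05, 13.04, 13.06, 12.92 and 13.02 in Gas1 mice. Control mouse C2 and Gas1 mouse G3 were high on the first probe and not on the second. DEN minus Control was 1.17 ± 0.24 (adjusted p = 0.030) on the first and 0.65 ± 0.10 (adjusted p = 0.012) on the second probe.

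Neither hormone carrier of clade A was called. Serpina6, corticosteroid-binding globulin, read 10.35, 10.96 and 10.73 in Control, 11.05, 11.31, 11.60 and 11.45 in DEN, and 10.83, 11.16, 10.99, 11.05, 11.69 and 11.26 in Gas1 mice. All DEN mice exceeded all Control mice, by 0.68 ± 0.19 in the mean (adjusted p = 0.082), and Gas1 mice overlapped both groups. Serpina7, thyroxine-binding globulin, had a difference of -0.25 ± 0.28 (adjusted p = 0.67) and its groups overlapped.

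For Serpina10, the cofactor-dependent inhibitor of factor Xa, the size of the mean difference depended on 1 mouse. Control mice read 11.22, 10.99 and 11.22, DEN mice 11.48, 12.95, 11.45 and 11.52, and Gas1 mice 11.06, 11.11, 11.04, 11.30, 11.01 and 11.04. The highest value belonged to T2, the mouse with high acute phase genes, on both probes (14.83 and 11.07). All DEN mice exceeded all Control and Gas1 mice, also without T2. The first probe separated them too, but the second did not. There DEN mice T3 and T4+5 read 9.53 and 9.51, Control mouse C3+4 9.53 and Gas1 mouse G4 9.51. The difference of DEN from Control was 0.71 ± 0.28 (adjusted p = 0.18) with T2 and 0.34 ± 0.08 (adjusted p = 0.075) without it.

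The Serpina1 paralogs showed no called difference. Serpina1a read 17.31, 17.14 and 17.30 in Control, 17.33, 17.44, 17.47 and 17.46 in DEN, and 17.43, 17.46, 17.12, 17.38, 17.19 and 17.33 in Gas1 mice. DEN mice lay just above Control mice (0.18 ± 0.08, adjusted p = 0.26) and overlapped Gas1 mice. On the loop probe alone, DEN mouse T1 (16.20) lay below Control mice C1 (16.23) and C3+4 (16.21). The probe shown first for Serpina1a ranked 1 to 3 by brightness on every array, that of Serpina1c 2 to 13 and that of Serpina1e 7 to 18. Quantile normalization gives the same value to the same rank, so these probes could hardly differ between arrays. Serpina1c (0.03 ± 0.09) and Serpina1e (-0.09 ± 0.08) were close to Control, and the Serpina1e probes differed in sign, at 0.04 and -0.21. Serpina1d read 15.71, 15.43 and 15.68 in Control and 15.87, 15.85, 15.83 and 15.78 in DEN mice, a difference of 0.23 ± 0.12 (adjusted p = 0.33). Under median scaling, which does not fix ranks, Serpina1a, Serpina1c, Serpina1d and Serpina1e were all called higher in DEN (1.02, 0.67, 1.36 and 0.84), where 12.9% of all genes were called.

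Of the Serpina3 paralogs, relatives of antichymotrypsin, 10 were on the array, and none was called. Their median difference was -0.01, and 3 of 10 had an unadjusted p under 0.05, all lower in DEN. Of all 22032 genes, 2088 were lower so. The 3 were Serpina3a, Serpina3b and Serpina3j, none of which was well above background on all arrays. Serpina3k, not among the 3, read 16.35, 16.10 and 16.15 in Control and 16.06, 15.82, 15.95 and 15.81 in DEN mice, with no overlap (-0.29 ± 0.14, adjusted p = 0.25). Serpina3n, an inhibitor of granzyme B, read 11.90 in T2 and between 9.89 and 10.71 in all other mice. Serpina3c ranged from 8.35 to 10.05, Serpina3m from 12.14 to 13.75 and Serpina3f from 6.30 to 7.41, with overlap of all groups. Of the Serpina3f probes, only the one annotated to both Serpina3f and Serpina3h was well above background on all arrays, and the probes differed in sign (0.40 and -0.25). Serpina3i also differed in sign (0.31 and -0.03), its second probe being on no array well above background.

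**Figure D2:**
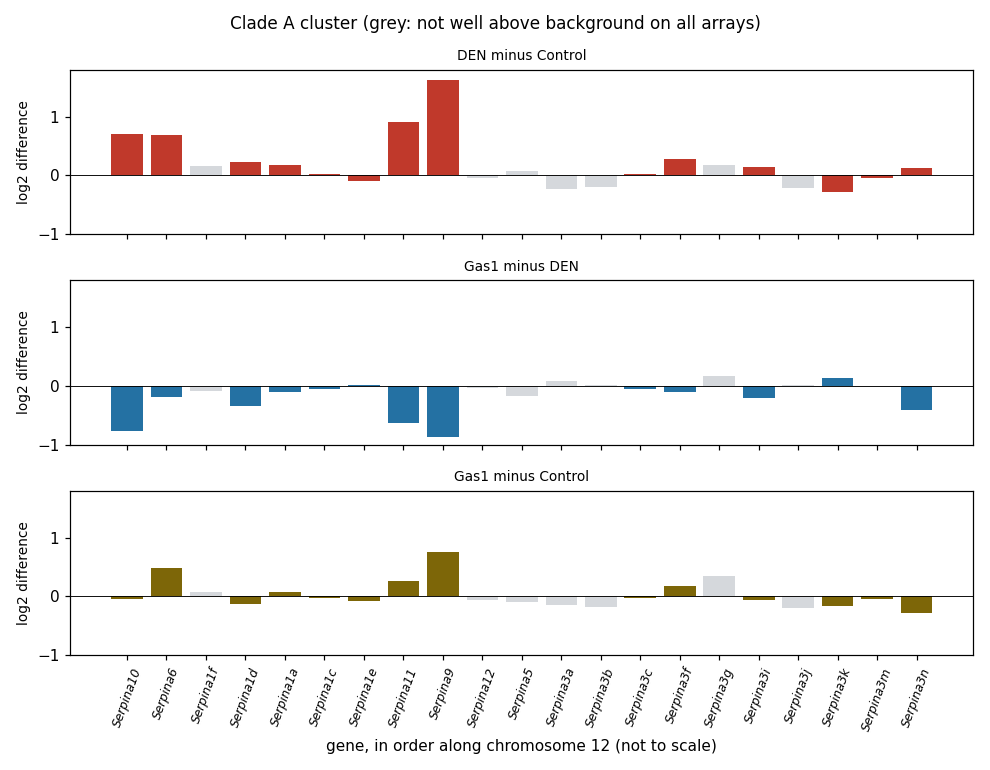
Log2 difference of each of the 21 clade A genes on chromosome 12, in chromosomal order, for DEN minus Control, Gas1 minus DEN and Gas1 minus Control, with genes not well above background on all arrays in grey. Serpina11 and Serpina9 stand side by side with differences of 0.91 and 1.62 in the first comparison and -0.64 and -0.87 in the second.

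The 21 genes on chromosome 12 spanned chr12:104854887-105651977 in mm9, or 797 kb between the outer probes. In their order, Serpina10 and Serpina6 lay at one end, then Serpina1f, Serpina1d, Serpina1a, Serpina1c and Serpina1e, then Serpina11 and Serpina9, then Serpina12, Serpina5 and the Serpina3 genes. The 4 genes with differences over 0.5 in DEN therefore lay in separate places: Serpina10 and Serpina6 adjoined each other, Serpina11 and Serpina9 likewise, and the Serpina1 genes between those pairs had values of -0.09 to 0.23. The whole of clade A had a median difference of 0.10, against 0.01 for all genes, with 14 of 22 higher. Of all 22032 genes, 11480 were higher. Among the 15 clade A genes on all arrays the median was 0.14, with 11 higher and 4 lower. Of all 8476 such genes, 4420 were higher and 4056 lower.

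Clade B had a median difference of -0.03, with no gene called and 3 of 26 at an unadjusted p under 0.05, all lower. Of all 22032 genes, 2088 were lower so. Among the 3, Serpinb6e and Serpinb9e were on no array well above background. Serpinb1a, which inhibits neutrophil elastase, had the largest size of the 3 at -1.32 ± 0.40 (adjusted p = 0.096). Without Control mouse C1 it was called lower in DEN, at -1.89 ± 0.31 (adjusted p = 0.025), where 0.568% of all genes were called. No other fit that left out a mouse called it. Control mice read 6.70, 8.10 and 8.73, DEN mice 7.12, 6.10, 6.39 and 6.50, and Gas1 mice 6.39, 7.0, 6.68, 6.67, 7.18 and 7.41. Control mouse C1 fell within the range of the other groups, so a wider difference without it follows from leaving it out. Neutrophil markers, 5 genes, averaged 6.50 to 6.82 in Control, 6.68 to 7.43 in DEN and 6.48 to 6.83 in Gas1 mice, and their part in the Serpinb1a values was not tested.

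In gene values, Serpinb6a and Serpinb6c, paralogs of an inhibitor of leukocyte proteases, were higher in every DEN and Gas1 mouse than in Control. Serpinb6a read 7.91, 7.79 and 8.12 in Control, 8.24, 8.24, 8.61 and 8.55 in DEN, and 8.34, 8.36, 8.32, 8.39 and 9.45 in Gas1 mice, of which G5 had an outlier spot and was dropped from its fit. Serpinb6c read 6.79, 6.83 and 6.99 in Control, 7.17, 7.13, 7.27 and 7.36 in DEN, and 7.09, 7.08, 7.23, 7.33, 7.13 and 8.17 in Gas1 mice. The highest value of both came from G6. On 1 probe of Serpinb6c, not well above background on all arrays, the groups overlapped. There Control mouse C2 read 6.54 and DEN mouse T1 6.51. Gas1 mice G1, G2 and G5 read 6.40, 6.49 and 6.50. In gene values DEN minus Control was 0.47 ± 0.24 (adjusted p = 0.30) for Serpinb6a and 0.36 ± 0.21 (adjusted p = 0.37) for Serpinb6c. Without G4 and G6, an alternative chosen after seeing the data, the same differences had adjusted p = 0.047 and 0.027. In it 5 serpins were called in place of 3, where 3.44% of all genes were called. Serpinb8 ranged from 10.86 to 13.30 and overlapped in all groups. Serpinb9, the inhibitor of granzyme B, was at -0.02 ± 0.09 (adjusted p = 0.93), and Gzmb was on no array well above background.

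The single serpins of the other clades went both ways, with a median of -0.03 over the 10 genes of clades C to I. Serpinc1, antithrombin, read 15.65, 15.73 and 15.84 in Control, 15.47, 15.31, 15.50 and 15.58 in DEN, and 15.55, 15.35, 15.83, 15.68, 15.48 and 15.55 in Gas1 mice. All DEN mice were below all Control mice (-0.27 ± 0.10, adjusted p = 0.15). The difference was -0.11 ± 0.18 (adjusted p = 0.79) on the authors' normalized table, and the sign turned to 0.04 on the scanner's processed signal and to 0.89 under median scaling. Serpinf2, alpha-2-antiplasmin, read 13.62, 13.98 and 13.95 in Control, 14.12, 14.34, 14.39 and 14.23 in DEN, and 14.12, 13.85, 13.96, 14.01 and 13.87 in Gas1 mice, with G5 dropped as an outlier spot. DEN mice lay above all Control mice by 0.42 ± 0.10 in the mean (adjusted p = 0.053). It was called in 7 of 32 alternative fits, among them the one without DEN mouse T1 (adjusted p = 0.037).

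Serpinh1 (Hsp47), the collagen chaperone of the endoplasmic reticulum, read 7.83, 7.56 and 7.20 in Control, 7.20, 7.17, 7.06 and 6.91 in DEN, and 7.14, 6.90, 6.96, 7.32, 7.22 and 7.55 in Gas1 mice. All DEN mice lay at or below the lowest Control mouse (-0.45 ± 0.16, adjusted p = 0.15). Stellate cell and fibroblast markers, 7 genes, averaged 7.01 to 7.46 in Control, 6.82 to 7.15 in DEN and 6.90 to 7.77 in Gas1 mice, and their part in the Serpinh1 values was not tested. Serpinf1, the secreted factor PEDF, was at -0.40 ± 0.17 (adjusted p = 0.21) with overlapping groups. Under median scaling both signs turned, to 0.12 for Serpinh1 and 0.57 for Serpinf1. Serpind1 (heparin cofactor II, -0.05 ± 0.16) and Serping1 (C1 inhibitor, 0.04 ± 0.20) had adjusted p = 0.90 and 0.94.

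**Figure D3:**
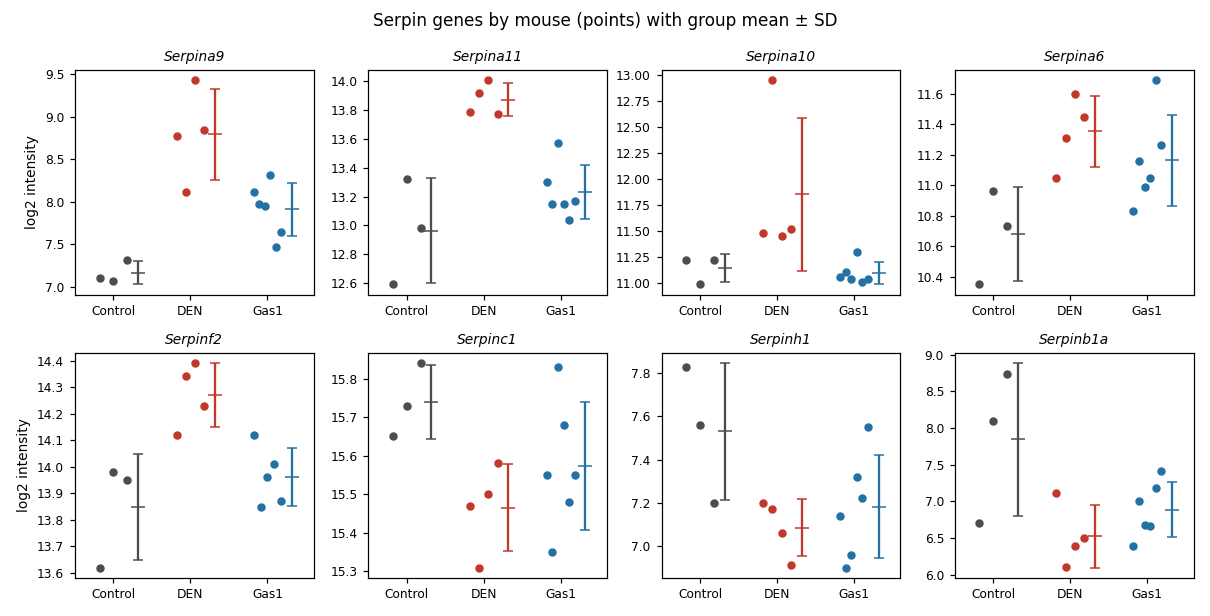
Log2 intensity (vertical axis) of 8 serpin genes in each mouse (points), by group (horizontal axis), with the group mean and SD beside the points (3 Control, 4 DEN and 6 Gas1 mice; Serpinf2 has 5 Gas1 mice). DEN points lie above all Control points for Serpina9, Serpina11, Serpina10, Serpina6 and Serpinf2.

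Gas1 minus DEN. Serpina9 and Serpina11 had lower means in Gas1 mice than in DEN mice, but neither difference passed. By limma, 0 of 58 serpins were called, against 0.127% of all genes. At an unadjusted p under 0.05, 5 serpins passed (8.62%, against 10.9% of all genes), all lower in Gas1 mice. By the methods' t-test 0 were called after Benjamini-Hochberg adjustment, and 5 (equal variances) or 4 (unequal variances) passed unadjusted. Mice of the groups did not overlap for 2 serpins (3.45%, against 3.13% of all genes), Serpina10 and Serpina11. Both were lower in Gas1 mice, where 2.03% of all genes lay wholly lower and 1.09% wholly higher. Among genes well above background on all arrays these 2 were 8.33% of serpins, against 4.31% of all. This comparison shares the DEN mice with the one before, so a high DEN mean lowers it by construction.

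Serpina11 was lower in each of the 6 Gas1 mice than in every DEN mouse, by 0.64 in the mean (-0.64 ± 0.13, adjusted p = 0.082). Its first probe gave -0.97 ± 0.20 (adjusted p = 0.089) and its second -0.32 ± 0.08 (adjusted p = 0.16). The gene-level difference passed in 4 of 32 alternative fits, among them the one with genes restricted to those well above background on all arrays of a group (adjusted p = 0.046) and that with slide as a term (adjusted p = 0.046). Serpina9 had a difference of -0.87 ± 0.22 (adjusted p = 0.13), and Gas1 mouse G4 at 8.32 overlapped DEN mouse T2 at 8.12.

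Serpina10 had a difference of -0.76 ± 0.24 (adjusted p = 0.26) and of -0.39 ± 0.07 (adjusted p = 0.12) without T2. On its second probe DEN mouse T4+5 and Gas1 mouse G4 both read 9.51. Serpinf2 had -0.31 ± 0.09 (adjusted p = 0.21). Serpina1d read 15.39, 15.51, 15.29, 15.91, 15.36 and 15.42 in Gas1 mice (-0.35 ± 0.10, adjusted p = 0.21). The value of G4, 15.91, was above all DEN mice, and without G4 the adjusted p was 0.040. That mouse went against the difference, so a wider difference without it follows from the choice. Serpina1d was called in 1 of 32 alternative fits. The probes of Serpina1d gave -0.18 and -0.53, and the former is annotated to Serpina1b as well. Serpina6 (-0.19 ± 0.16) had adjusted p = 0.72. Clade A as a whole had a median of -0.07, with 14 of 22 genes lower, and clade B 0.05, with 18 of 26 higher. The median of all 22032 genes was -0.01, with 11885 lower and 10147 higher. In clade B only 3 genes were well above background on all arrays and 12 were on none, so most of its signs come from dim values.

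Gas1 minus Control. No serpin passed when tumour-bearing mice with Gas1 were set against Control mice. By limma, 0 of 58 serpins were called, against 0.427% of all genes, and 13 passed at an unadjusted p under 0.05 (22.4%, against 13.2%). By the methods' t-test 0 were called after adjustment and 6 passed unadjusted in either form. Groups did not overlap for 5 serpins (8.62%, against 5.86% of all genes), of which 4 were higher (against 2.85%) and 1 lower (against 3.01%). For genes well above background on all arrays the shares were 12.5% of serpins and 9.01% of all. Serpina9 (0.75 ± 0.24, adjusted p = 0.19), Serpinb6a (0.63 ± 0.23, adjusted p = 0.26) and Serpinb6c (0.47 ± 0.19, adjusted p = 0.33) were higher in all Gas1 mice. On 1 probe of Serpinb6c, however, the groups overlapped. Serpina3b, which was not well above background on all arrays, was lower in all Gas1 mice (-0.18 ± 0.06, adjusted p = 0.18). Serpina11 was at 0.27 ± 0.14 (adjusted p = 0.45), and Serpina6 at 0.48 ± 0.18 (adjusted p = 0.27). Clade A had a median of -0.06 and clade B of -0.01, against 0 for all genes. This comparison shares its Control mice with DEN minus Control and its Gas1 mice with Gas1 minus DEN.

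**Figure D4:**
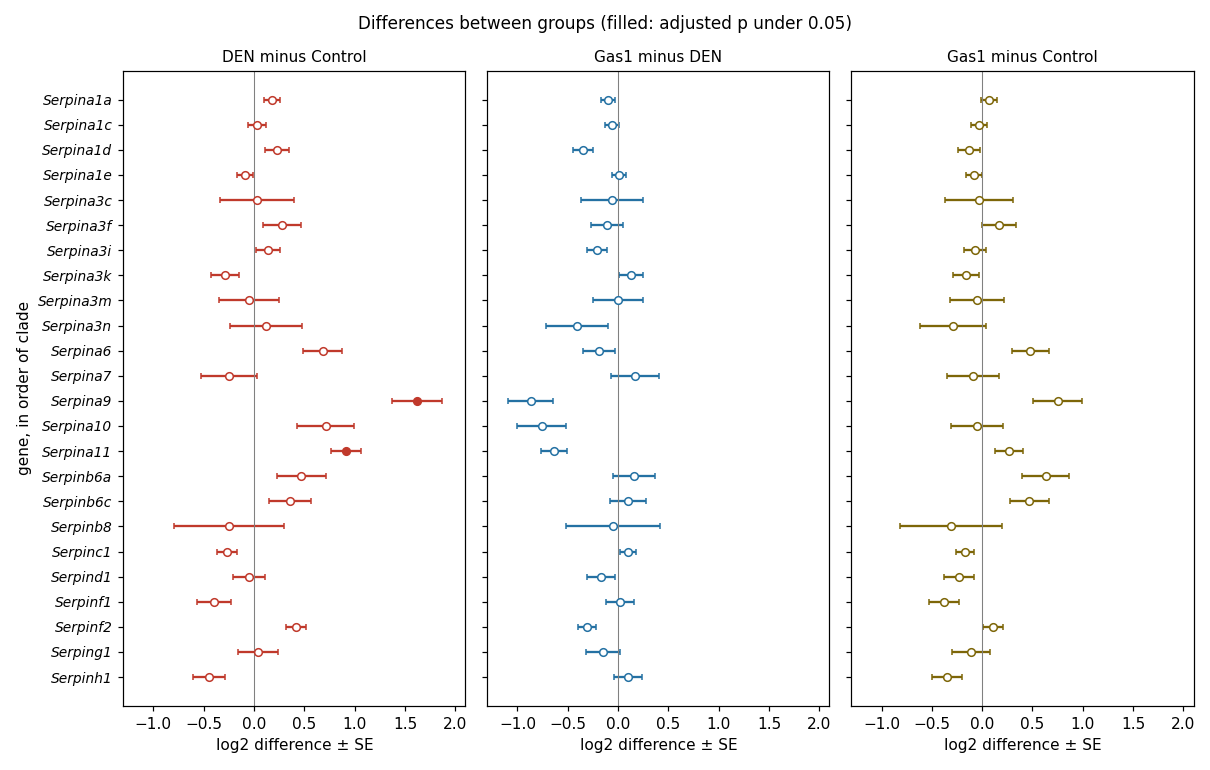
Log2 difference with its standard error (horizontal axis) for the 24 serpins well above background on all arrays (vertical axis, by clade) in the 3 comparisons. Filled points, adjusted p under 0.05, occur among them for Serpina9 and Serpina11 in DEN minus Control and nowhere else.

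In G4 and G6, the mice with squamous epithelial transcripts, 4 clade B serpins were higher than in all other mice, and only there well above background. Serpinb3a read 7.11 in G4 and 6.72 in G6, against at most 6.03 elsewhere, and Serpinb3c 7.35 and 6.80, against at most 6.19. These are the mouse relatives of the human squamous cell carcinoma antigens. Serpinb5 (maspin) read 6.55 and 6.21, against at most 6.06, and Serpinb12 6.56 and 6.33, against at most 6.04. Of all genes, 355 (1.61%) were higher in both mice than in all others. Without both mice, the Gas1 minus DEN difference of Serpinb3c went from 0.39 to 0.03 and that of Serpinb3a from 0.40 to 0.05. Serpinb5 went from 0.15 to 0.02 and Serpinb12 from 0.12 to -0.06. These genes were picked for their high values in both mice, so a smaller difference without them follows from the choice. The source of the squamous transcripts was not tested.

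In T2, 17 of the 18 acute phase genes had their highest value, such as Saa1 at 18.39 (next highest mouse 14.35) and Lcn2 at 15.40 (next highest 11.21). Of the 24 serpins on all arrays, 6 were highest in T2, against 10.8% of all such genes: Serpina3c, Serpina3f, Serpina3i, Serpina3n, Serpina10 and Serping1. Without T2 the DEN minus Control difference of Serpina3n went from 0.12 to -0.30, of Serpina3c from 0.03 to -0.24, of Serpina3f from 0.28 to 0.09, of Serpina3i from 0.14 to 0 and of Serping1 from 0.04 to -0.13. None of these 5 was called with or without T2. They were picked as highest in T2, so a lower difference without it follows from the choice. Over the 24 serpins, T2 deviated from its group mean by 0.51 (root mean square), against 0.19 to 0.35 in the other mice. Serpina9 and Serpina11 did not stand out in T2, at 8.12 and 13.92. With T2, G4 and G6 all left out, Serpina9, Serpina10, Serpina11 and Serpinb6c were called in DEN minus Control, at 1.85, 0.34, 0.89 and 0.40. This alternative was chosen after seeing the data, and 1.89% of all genes were called in it.

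**Figure D5:**
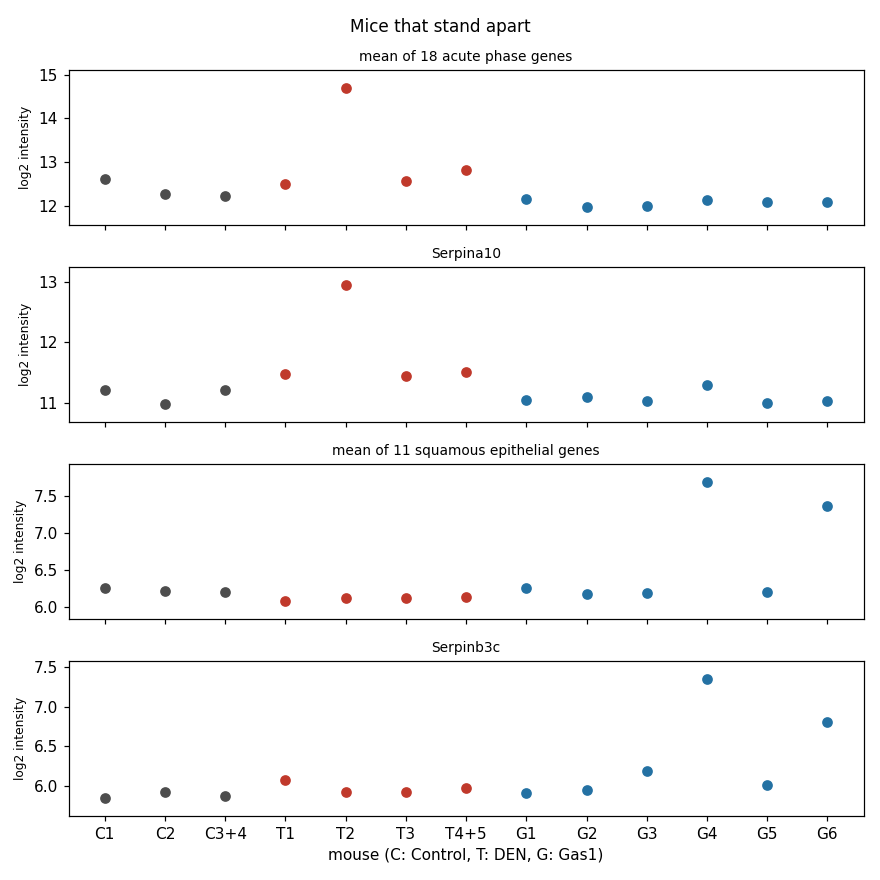
Log2 intensity (vertical axes) in each of the 13 mice (horizontal axis) of the mean of 18 acute phase genes, of Serpina10, of the mean of 11 squamous epithelial genes and of Serpinb3c. T2 is highest in the first pair of panels (14.71 and 12.95), and G4 and G6 in the second (7.70 and 7.37, then 7.35 and 6.80).

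Few of the genes that act with serpins or beside them were called. Of 25 measured target proteases (coagulation factors, plasminogen, elastases, granzymes and kallikreins), none was called in any comparison by limma. At an unadjusted p under 0.05, 1 was higher in DEN minus Control, 1 higher and 3 lower in Gas1 minus DEN, and 1 lower in Gas1 minus Control. Of all genes 20.3%, 10.9% and 13.2% passed so. Of 14 receptors and folding partners, such as Lrp1, which clears serpin complexes, and Calr, a chaperone of secreted glycoproteins, none was called. Unadjusted, 3 were higher and 1 lower in DEN minus Control, 2 and 6 in Gas1 minus DEN, and 1 and 4 in Gas1 minus Control. The 18 acute phase genes held no called gene, with medians of 0.64 in DEN minus Control and -0.75 in Gas1 minus DEN, where 6 were higher and 11 lower unadjusted. Without T2 these medians were 0.15 and -0.33, with 3 higher and 10 lower unadjusted. Of 22 other plasma inhibitors, Itih1, a heavy chain of inter-alpha-inhibitor, rose in DEN (0.61 ± 0.14, 1.52-fold, adjusted p = 0.044). Tfpi2, an inhibitor of plasmin and tissue factor, fell by 0.67 (-0.67 ± 0.12, adjusted p = 0.018). Neither passed in the other comparisons. Unadjusted, 7 of the 22 were higher and 3 lower in DEN minus Control, 8 lower in Gas1 minus DEN, and 2 higher and 2 lower in Gas1 minus Control. The medians of this list were 0.17, -0.12 and 0.06, against 0.01, -0.01 and 0 for all genes.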

How the data were processed

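The authors scanned 15 Agilent mouse arrays of the 8x60K design and deposited, per the file headers, the spot and background intensity written by Feature Extraction 10.7.3.1, with mm9 probe positions and no normalization between arrays. A deposited table of the series holds the authors' log2 values after normexp and quantile normalization. It was used as an alternative, and 99.4% of its values, and 88.6% of those of serpin spots, lay within 0.05 of those rebuilt here. RNA (100 ng) was labelled.

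Groups came from the sample labels. From the intensity, log2 values were computed with normexp (offset 50) and quantile normalization over 59305 non-control spots. Outlier-flagged spots were set missing, and no spot of the serpins was saturated. Probes of a symbol were centred and averaged (22032 symbols). Arrays with 1 RNA code were compared: the SD of their log2 differences, divided by that of the closest other pair in the group, was 0.502 and 0.609. Being under the limit of 0.7, both pairs were averaged to 1 mouse each. That these were 1 animal is inferred from the codes. All groups entered 1 limma fit (limma 3.58.1, R 4.3.3, 1 mean per group, eBayes), with Benjamini-Hochberg adjustment over all symbols and a threshold of 0.05. Here SE is the fit's standard error and n counts mice. Only the labels show the mice to be separate animals.

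Named serpins are Serpina1a, Serpinc1, those with an adjusted p under 0.05 and those well above background on all 15 arrays. Of these, 1 called gene is not reported here. A switch from all arrays of 1 group to none of another was looked for as well. Other serpins are named where a value made them stand out. Serpins and gene lists were chosen with earlier results of these data known. All 58 symbols are in the current RefSeq table. Probes were matched to genes by the array's annotation, under which 4 serpin probes list transcripts of several genes. Background correction, scaling, filters, probe summaries, slides, the replicate number, the methods' t-test and left-out mice were alternatives.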

Additional observations from a re-analysis of the deposited data

Results flagged for a closer look

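In groups of 4 to 6 mice, the highest or lowest mouse was compared with the rest for each serpin. Of 116 groups of values, those with fewer than 4 mice measured were left out. In 14 groups, 1 mouse lay far from the others of its group. Chance gives about 1 in 20 for a single group, but the groups share the same mice, so the count was not tested. DEN mouse T2 was high for Serpina10 (12.95, next 11.52) and Serpina3i (7.40, next 6.92). It was low for Serpina3a (6.24), in a group whose other values reached only 6.29.

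Gas1 mouse G6 was high for Serpinb6a (9.45, next 8.39) and Serpinb6c (8.17, next 7.33), and G4 for Serpina1d (15.91, next 15.51) and Serpina10 (11.30, next 11.11). Gas1 mouse G5 was low for Serpina1c (17.96, next 18.25) and Serpina3b (6.35, next 6.46). DEN mouse T1 was low for Serpina1a (17.33, next 17.44).

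The remaining values concern genes on no array well above background: Serpinb1b in T2 (5.92), Serpinb3d in T1 (5.83), Serpinb6d in G2 (6.38) and Serpinb9g in G2 (6.10).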

How the results depend on the processing

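Against 3 serpins called in DEN minus Control, the count was 1 on the scanner's processed signal (0.254% of all genes, whose median moved by -0.40). It was 12 under median scaling (12.9%, median moved by 0.12) and 8 with 15 arrays as separate mice (8.84%). Slide 1 alone gave 0 (0.219%), slide 2 alone 1 (0.0772%) and both forms of the methods' t-test 0. Without Gas1 mice 4 and 6, an alternative chosen after seeing the data, it was 5 (3.44%). Leaving out 1 mouse gave 1 (without DEN mouse 3) to 5 (without Gas1 mouse 6). Every serpin called under these 2 scalings was higher in DEN, but with separate arrays Serpina3a (-0.22), Serpina3b (-0.19) and Serpinb1a (-1.54) were called lower, as was Serpinb1a without Control mouse 1. In Gas1 minus DEN the count was 0, but 1 with the filter on dim genes (0.61% of genes), 2 with separate arrays (1.19%), 1 with slide as a term and the RNA code as a random block (0.363%), and 0 to 1 when a mouse was left out (1 without Control mouse 1 or Gas1 mouse 4). In Gas1 minus Control it was 0 under all alternatives run. The remaining alternatives gave counts within 1.5 times those reported. Signs turned for Serpinc1 in DEN minus Control (0.04 on the processed signal, 0.89 under median scaling), and under median scaling for Serpinf1 (0.57 in DEN minus Control, 0.46 in Gas1 minus Control) and Serpinh1 (0.12 and 0.19). The cause was not tested. Serpina9 was called in 28 of 32 alternatives and Serpina11 in 27 of 32, in the same direction in each.

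With the replicate number as a block, 4 serpins were called in DEN minus Control (Serpina6, Serpina9, Serpina11, Serpinb6c) and 0 in the others. The numbers appear to be names only: the 10 same-numbered pairs of mice had correlations of -0.31 to 0.25, and 4 of 13 mice correlated best with their own number. Dim spots limit 34 of 58 serpins, which were not above background on all arrays.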
